A study of Homo sapiens with 14 samples.

Results

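Binding of p-JUN, the JUN protein in its phosphorylated form, was compared between LX-2 cells labelled as cultured on a soft matrix and LX-2 cells labelled as cultured on a stiff matrix. LX-2 is an immortalised human hepatic stellate cell line, and the cells of all groups carried the wild type genotype and had been cultured for 2 days. The 4 p-JUN peak lists of the series, out of 14 samples, form this comparison: 2 libraries labelled soft and 2 labelled stiff. The titles of both stiff p-JUN libraries name TCP, the abbreviation that the study uses for tissue culture plastic, so these cells may have been on plastic and not on a stiff hydrogel. The groups are called soft and stiff after their treatment labels. All 4 libraries came from the same line, and the labels name no separate cultures, so p-values measure the spread between these libraries, which may be technical. The study states at least 2 biological replicates for its sequencing experiments, and does not say what sets the p-JUN replicates apart. It places the p-JUN and ATF3 CUT&Tag in the same batch and names no day. The culture, the processing day and the matrix cannot be told apart.

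JUN pairs with FOS, ATF and other basic leucine zipper proteins to form AP-1, a dimer that binds the 7-base sequence TGACTCA and its relatives in enhancers and promoters. JNK and other MAP kinases phosphorylate the activation domain of JUN, which raises its power to activate transcription. In hepatic stellate cells AP-1 takes part in the change to a matrix-producing myofibroblast, and at many enhancers it binds beside TEAD factors, the DNA-binding partners of YAP and TAZ, whose entry into the nucleus depends on tension in the cell.

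In CUT&Tag an antibody holds a transposase at its target, and the fragments that are cut out are sequenced. The height of a peak was taken as the number of fragments covering its summit, recovered from the fold and the −log10 p that were deposited for that peak. The lists held 51665 and 48163 peaks for soft against 48682 and 54168 for stiff. Peaks that overlapped by at least 1 bp were merged into 61411 regions, of which 40433 (65.8%) were called in all 4 lists. These 40433 regions are described here. Their median height was 82 and 70 fragments for soft against 73 and 85 for stiff. The stiff mean of 79 and the soft mean of 76 did not differ beyond the replicates (exact permutation test, two-sided, p = 0.67; the smallest p that 2 libraries against 2 allow is 0.33). The height of a library in a region was that of its own tallest peak there, so the 4 summits could differ. They lay over 150 bp apart in 17.8% of regions. Among regions named below they spanned 228 bp near RIPK2, 291 bp near COL8A1, 239 bp near ACTA2 and 5 bp at COL5A2. Gene distance, base composition and motifs were read at the summit of the library whose peak was tallest against its median. Each library was scaled to its own median before differences were taken. A fall in height may come from fewer cells with p-JUN at the site or from less p-JUN at the site in each cell, and bulk libraries cannot tell these apart.

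The sequences below are the 101 reference bases (hg19, plus strand) centred on the summit of regions that differed. They are shown because they hold, or lack, the motifs that are counted further on. Capitals mark an AP-1 motif (TGACTCA or TGAGTCA) or a TEAD hexamer (GGAATG or CATTCC), each searched on both strands. The first 6 sites were higher in the stiff libraries: CDH8 is named for the nearest gene of chr16:60804285-60804385, VWA3A of chr16:22129143-22129243, TGFBR2 of chr3:30552185-30552285, WWC1 of chr5:167752019-167752119, LOXL3 of chr2:74791617-74791717 and C5orf58 of chr5:169638861-169638961.
CDH8: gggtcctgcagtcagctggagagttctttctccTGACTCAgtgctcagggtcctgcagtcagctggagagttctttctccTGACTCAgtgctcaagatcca
VWA3A: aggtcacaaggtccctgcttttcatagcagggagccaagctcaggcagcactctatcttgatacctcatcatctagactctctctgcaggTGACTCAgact
TGFBR2: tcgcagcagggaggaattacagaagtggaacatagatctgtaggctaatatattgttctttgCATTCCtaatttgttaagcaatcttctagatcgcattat
WWC1: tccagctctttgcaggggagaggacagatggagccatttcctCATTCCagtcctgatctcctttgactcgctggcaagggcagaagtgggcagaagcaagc
LOXL3: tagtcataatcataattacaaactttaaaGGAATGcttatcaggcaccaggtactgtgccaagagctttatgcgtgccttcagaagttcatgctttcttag
C5orf58: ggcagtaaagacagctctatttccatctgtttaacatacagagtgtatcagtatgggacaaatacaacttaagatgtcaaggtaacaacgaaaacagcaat

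The next 4 sites were higher in the soft libraries: GIGYF2 is the nearest gene of chr2:233646575-233646675, DSCAML1 of chr11:117688979-117689079, PLEKHM1 of chr17:43539340-43539440 and FAM240C of chr2:242950347-242950447. The CDH8 and FAM240C windows show the same words more than once, since they lie in tandem repeats.
GIGYF2: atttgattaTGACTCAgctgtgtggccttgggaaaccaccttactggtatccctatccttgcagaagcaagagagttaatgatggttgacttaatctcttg
DSCAML1: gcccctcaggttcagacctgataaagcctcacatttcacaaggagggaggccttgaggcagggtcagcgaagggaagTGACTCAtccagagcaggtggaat
PLEKHM1: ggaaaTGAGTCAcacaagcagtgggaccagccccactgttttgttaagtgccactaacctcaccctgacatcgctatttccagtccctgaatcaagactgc
FAM240C: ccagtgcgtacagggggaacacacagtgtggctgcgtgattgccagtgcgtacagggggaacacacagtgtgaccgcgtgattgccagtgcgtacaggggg

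Heights at shared p-JUN regions differed more between the soft and stiff labels than between libraries of one label, although most differences were small. Across the 40433 regions the SD of the log2 ratio of 2 libraries was 0.217 for the soft pair and 0.25 for the stiff pair, and 0.322 to 0.334 for the 4 pairs that cross the labels. The SD that counting fragments alone gives was 0.245 to 0.264. The soft pair thus differed by less than counting error (variance ratio 0.726), and the stiff pair by about as much (0.969). The pairs across labels exceeded it, with ratios of 1.52 to 1.86, which reached 2.5 to 3.65 in the 10% of regions with the tallest peaks. The share of regions with a summit at the very same base was 21.3% in the soft pair, 21.1% in the stiff pair and 20.4% to 21.7% across labels, so the soft lists did not share summit positions more often than other pairs. Both soft libraries were kept as separate samples. The counts of shifted regions, of limma calls and of pathway lists are also given with the soft pair averaged and counted as 1 sample.

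A region was called shifted when the lower of the libraries of one label stood at least 1.5-fold above the higher of the other label. By this rule 316 regions (0.782% of 40433) were higher in both stiff libraries and 177 (0.438%) were higher in both soft libraries. With the soft pair averaged and counted as 1 sample the rule, which then asks less, gave 588 and 327. The 4 summits lay within 150 bp in 77.7% of the 493 shifted regions, against 82.2% of all regions. When summits within 150 bp were taken as the regions, the rule gave 252 stiff-higher and 136 soft-higher of 33292. The same rule was applied to the mixed pairings of the 4 libraries. These are not independent of the labels, since a region that separates the labels cannot separate a mixed pairing. Replicates 2 against replicates 1 gave 4 regions in either direction (0.00989%), and soft 1 with stiff 2 against soft 2 with stiff 1 gave 5 (0.0124%). At a gap of 2-fold or more 11 and 8 regions remained for stiff against soft, and no region in either mixed pairing. With any gap above 0, 55.8% of regions separated the labels and 22.7% and 21.4% separated the mixed pairs. Ties aside, every region separates exactly 1 of the 3 pairings, so these shares are complements, and an even division would give 33.3% to each. The larger number of stiff-higher regions is not stable: without stiff replicate 2 the rule gave 596 stiff-higher and 811 soft-higher regions, and with any gap above 0 the soft-higher regions were the more numerous (13472 against 9089).

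**Figure D1:**
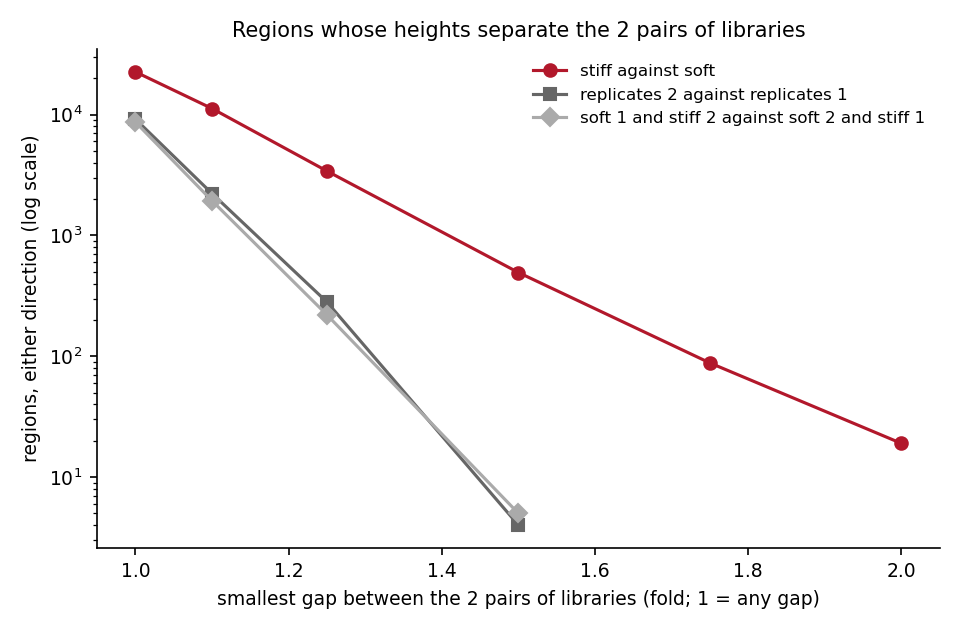
Number of regions, of 40433, in which the 2 pairs of libraries do not overlap (y axis, log scale) against the smallest gap required between them in fold (x axis), for the labels and for the 2 mixed pairings. At 1.5-fold 493 regions separated stiff from soft against 4 and 5 in the mixed pairings, and pairings with no region at a gap are not drawn there.

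Regions at the threshold show what the rule accepts. The region just inside it on the stiff side, 10950 bp from a start of DIPK1A, had 49 and 45 fragments on soft against 79 and 82 on stiff. The region just outside, 238902 bp from a start of RASL11B, had 85 and 78 on soft against 122 and 143 on stiff. On the soft side the last region inside lay near ADAMTS1, with 51 and 42 fragments on soft against 29 and 34 on stiff, and the first outside lay near RAB40B, with 32 and 28 on soft against 19 and 18 on stiff.

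In limma fits over all 40433 regions, 2487 (6.15%) were higher on stiff and 2980 (7.37%) higher on soft at a Benjamini-Hochberg adjusted p under 0.05. All 493 shifted regions were among them. Neither mixed pairing gave a call (0%), with 254 and 179 regions at an unadjusted p under 0.05 against 11348 for the labels. In a mixed pairing the difference between the labels enters the spread within pairs, whose mean SD was 0.326 and 0.33 against 0.233 for the labels, so these fits are bound to call less and do not give the rate of false calls. The median size of a called difference was 0.48 on the log2 scale, and 72 of the 5467 called regions differed by 2-fold or more. These p-values lean on the spread pooled over regions of like height, since 4 libraries leave 2 residual degrees of freedom. That spread comes from the soft and stiff pairs, whose variances were 0.726 and 0.969 of that from counting fragments. The SEs and adjusted p-values given for single regions can therefore be smaller than counting alone would allow. When the spread was pooled without regard to height, or when the deposited fold replaced the fragments, no region passed (9348 and 3772 at an unadjusted p under 0.05). With the soft pair averaged and counted as 1 sample 978 regions passed, 631 higher on stiff and 347 higher on soft. Without soft replicate 1 there were 912 and 628, and without soft replicate 2 there were 936 and 562. The split between directions was not stable. Stiff-higher regions were 45.5% of the calls with all 4 libraries, 64.5% with the soft pair as 1 sample, 59.2% and 62.5% without either soft library, 61.4% after quantile normalization and 62.9% when libraries were scaled by their median ratio. Their share was 44.4% after GC correction, 45.7% without stiff replicate 1 and 37.5% without stiff replicate 2. The median difference over all regions was -0.05.

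**Figure D2:**
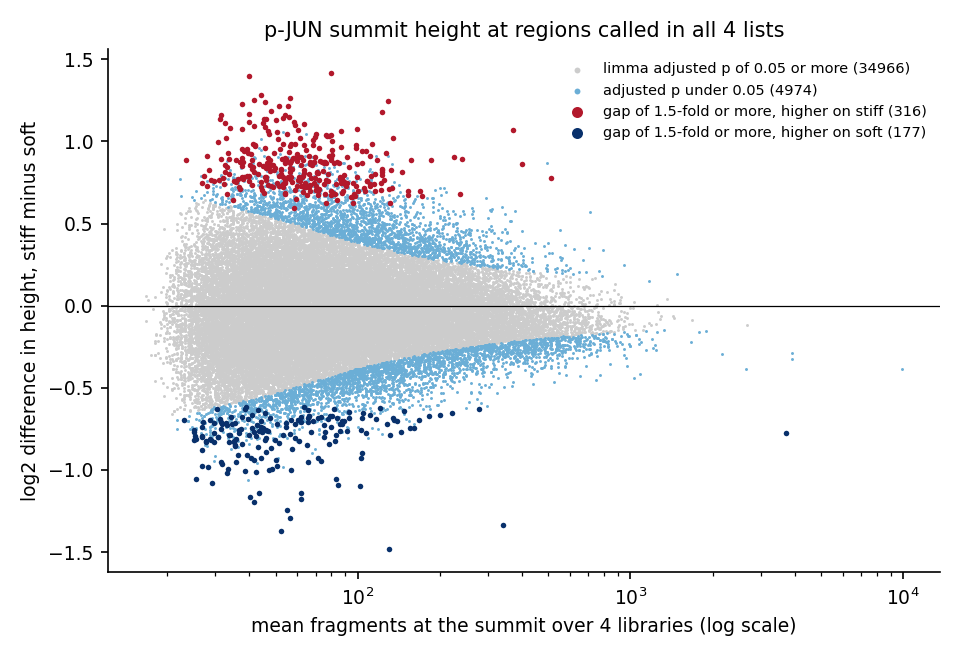
Log2 difference in summit height, stiff minus soft (y axis), against the mean number of fragments at the summit over the 4 libraries (x axis, log scale), 1 point per region. The 316 and 177 shifted regions are mostly of modest height, with medians of 60.9 and 47.8 fragments, and among the tallest regions more points lie below 0 than above.

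Shifted regions were of modest height, with a median of 60.9 fragments for the stiff-higher and 47.8 for the soft-higher set against 77.5 over all regions. The calls of limma were spread otherwise. In the 10% of regions with the tallest peaks, with a median of 350.2 fragments, 19.2% were called higher on soft against 5.14% higher on stiff. In the lowest 10%, with a median of 28.5 fragments, the shares were 3.07% and 1.46%. The AP-1 motif was found within 50 bp of the summit in 48.5% of the tallest 10% and 20.1% of the lowest 10%.

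For neighbours under 2 kb apart (1766 pairs) the log2 differences of stiff against soft correlated with r = 0.52 across pairs of regions, against 0.13 and 0.11 in the mixed pairings. At 2 to 10 kb (8367 pairs) r was 0.31 against 0.05 and 0.04, and at 10 to 50 kb (17433 pairs) it was 0.13 against 0.01 and 0. Neighbouring regions share libraries and base composition, and the closest may share fragments, so these correlations across regions are a description and carry no test.

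The 8 widest gaps on the stiff side lay away from start sites, 3 of them in introns. The region upstream of C5orf58 held 35 and 30 fragments on soft against 70 and 81 on stiff. Both stiff libraries stood more than 2-fold above both soft libraries after scaling, and the log2 difference was 1.16 (SE 0.193, n = 2 against 2, limma adjusted p = 2.01e-06). An intronic region 102 kb from the nearest start of OSBPL10, which encodes an oxysterol-binding protein relative, rose from 27 and 21 fragments to 57 and 61. A region 25.2 kb upstream of a start of GALNT11, an enzyme that begins O-linked glycan chains, rose from 29 and 28 fragments to 64 and 71. A region 1250 kb from CDH8, a cadherin gene, had the tallest peak of the 8, with 77 and 69 fragments on soft against 170 and 173 on stiff (log2 difference 1.18, SE 0.132, limma adjusted p = 2.85e-13). It holds 2 AP-1 motifs within 101 bases, but 79% of the 20-base words in the 501 bases around its summit occur there more than once. The region of VWA3A had 31 and 30 fragments on soft against 64 and 75 on stiff, with 1 AP-1 motif at the edge of the window. The other 3 regions of this set had PCNX1, SNTN and IMPG1 as nearest genes, IMPG1 at 631 kb. They held 19 to 28 fragments on soft against 42 to 78 on stiff.

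On the soft side the widest gap lay 284 kb from RIPK2, the kinase that carries signals of NOD receptors. This region had 87 and 71 fragments on soft against 31 and 36 on stiff (log2 difference -1.29, SE 0.19, limma adjusted p = 7.31e-08). An intronic region of THADA had 83 and 70 fragments on soft against 34 and 33 on stiff. A region in an intron of GIGYF2, which encodes an adaptor in translational repression, fell from 79 and 70 fragments to 33 and 27, a log2 difference of -1.37 (SE 0.198, limma adjusted p = 3.2e-08). Its AP-1 motif is the one in capitals above. AP-1 motifs were also present near the promoter summit of the adhesion gene DSCAML1 (119 and 103 fragments on soft, 51 and 60 on stiff), in the UBE2Z region near an E2 ubiquitin-conjugating enzyme gene (92 and 76 on soft, 39 and 40 on stiff) and in that of PLEKHM1, a lysosomal adaptor gene (57 and 53 on soft, 25 and 26 on stiff). At all of these sites the stiff libraries lay apart from the soft libraries, which the choice by widest gap fixed beforehand. Both regions nearest to FAM240C, 106 and 108 kb away near the end of chromosome 2, lay in tandem repeats. The taller held 466 and 497 fragments on soft against 174 and 226 on stiff, and 89.4% of its 20-base words were repeated.

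**Figure D3:**
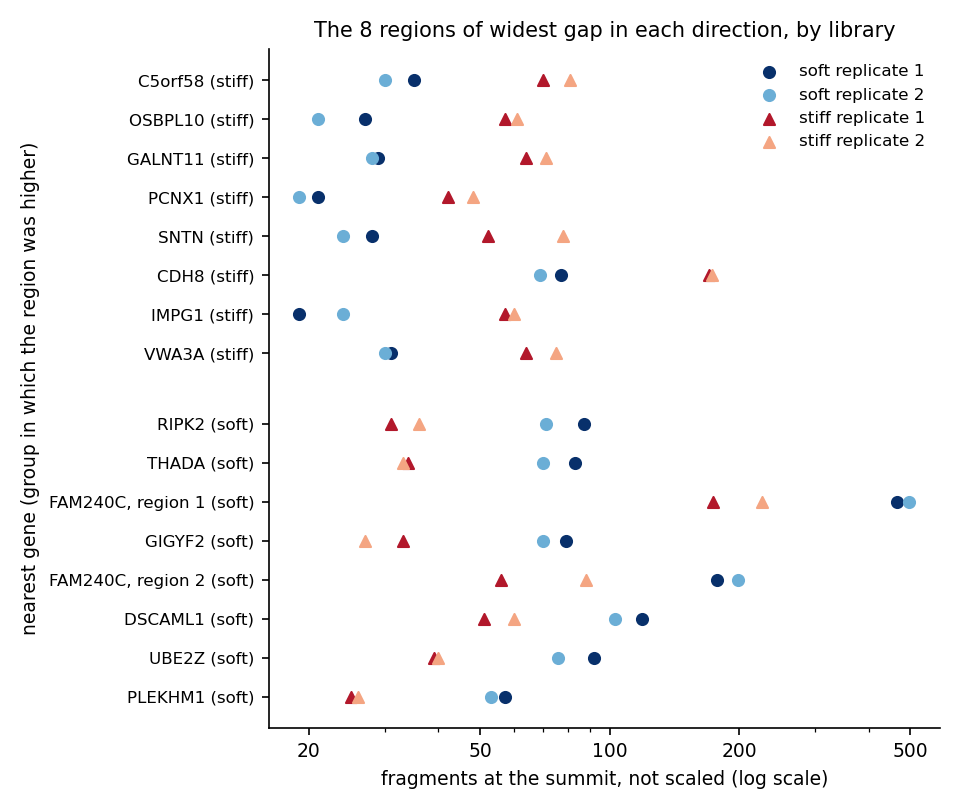
Fragments at the summit in each library (x axis, log scale, not scaled for library) for the 8 regions of widest gap in each direction, named by the nearest gene (y axis). At each region the 2 soft points and the 2 stiff points lie apart, between 19 and 497 fragments, since the regions were chosen by this gap.

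Tandem repeats were more frequent among shifted regions. At least 20% of the 20-base words around the summit were repeated in 11 of the 316 stiff-higher regions (3.48%, 95% Wilson interval 1.95% to 6.12%) and in 8 of the 177 soft-higher regions (4.52%, 2.31% to 8.66%), against 0.885% of all regions. They included the tallest of the shifted regions, 134 kb from a start of SFSWAP, with 4851 and 4408 fragments on soft against 2591 and 3041 on stiff. How multiply mapped reads were handled is not given in the sources used here, and the part of repeats in the counts was not tested.

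The sequence and position of the sites went with the direction of the difference. A TEAD hexamer lay within 50 bp of the summit in 52 of 316 stiff-higher regions (16.5%, 12.8% to 20.9%), in 6 of 177 soft-higher regions (3.39%, 1.56% to 7.2%) and in 9.52% of all regions. In windows of the same length 1 kb to either side it was found in 7.44%, 5.37% and 5.53%. Over the limma calls the shares were 16.7% of stiff-higher and 6.41% of soft-higher regions. Over 10 equal bins of regions ordered by log2 difference the share of regions with the hexamer went from 5.02% where soft was highest to 15.5% where stiff was highest. Over such bins of the mixed pairings it lay between 7.86% and 10.8%. Among regions that separate the pairs by any gap the share differed by 6.5 points between the labels and by 1.7 and 1.4 points in the mixed pairings. The hexamer share was also higher in stiff-higher regions at like base composition: at 40% to 50% GC it was 19% of 153 stiff-higher and 8.2% of 61 soft-higher shifted regions. Away from promoters it was 16.3% of 306 and 4.41% of 136. Leaving out any one library kept the difference in shifted regions, 13.1 points with all libraries, between 10.2 and 13.3 points. With the deposited fold it was 4.8 points, and at a gap of 2-fold or more, with 11 and 8 regions, it turned to -12.5 points through 1 soft-higher region with the hexamer.

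The AP-1 motif differed too, but it also differed in the mixed pairings. It was present in 41 of the 316 stiff-higher regions (13%, 9.71% to 17.1%) and 61 of the 177 soft-higher regions (34.5%, 27.9% to 41.7%), against 33.4% of all regions and 1.6% of windows 1 kb away. Among regions that separate the pairs by any gap the AP-1 share was 8.2 points lower on the stiff side. In replicates 2 it was 21.7 points lower than in replicates 1, and in the crossed pairing it differed by 12 points. Without stiff replicate 2 the difference in shifted regions turned from -21.5 to 3 points. The AP-1 share thus differed in every pairing of the libraries.

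Promoter share had the same limit. Summits lay within 1 kb of a protein-coding start site in 3.16% of stiff-higher regions (1.73% to 5.73%), 23.2% of soft-higher regions (17.6% to 29.9%) and 17.2% of all regions. Regions in introns made up 47.2% of the stiff-higher and 33.3% of the soft-higher set. Median GC within 100 bp of the summit was 42.3% and 50.2%, against 48.3% overall. In the mixed pairings the promoter share differed by 18 and 15 points among regions with any gap, next to -22 points for stiff against soft. After a correction for GC in each library the difference in promoter share between shifted sets went from -20 to -4.9 points, while that of the TEAD hexamer was 11.7 points.

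**Figure D4:**
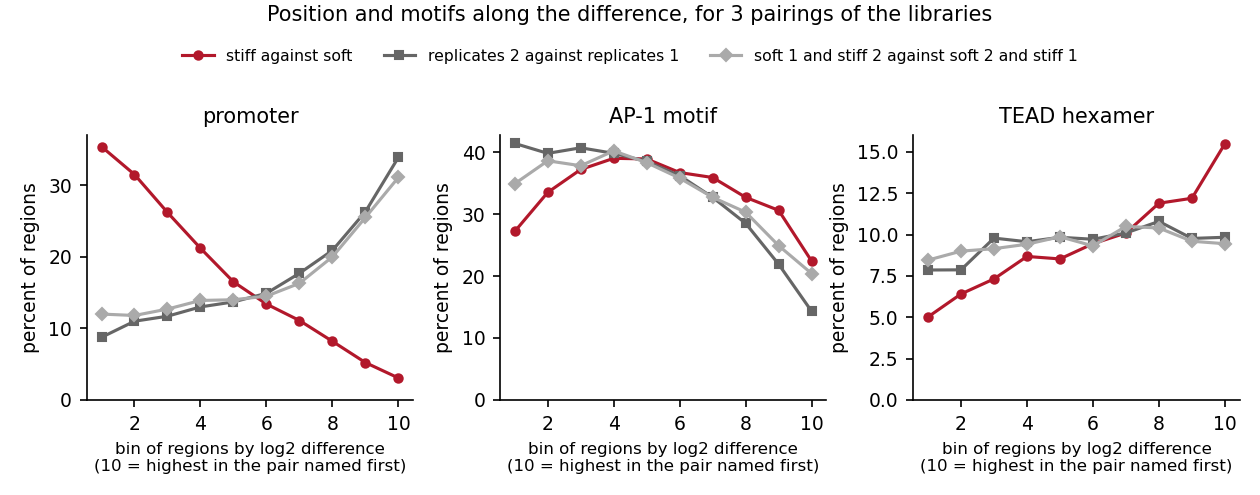
Percent of regions at a promoter, with an AP-1 motif and with a TEAD hexamer (y axes) in 10 equal bins of the 40433 regions ordered by log2 difference (x axis), for stiff against soft and the 2 mixed pairings. Promoter and AP-1 shares change along the difference in all 3 pairings, whereas the TEAD share runs from 5.02% to 15.5% for the labels and stays between 7.86% and 10.8% for the mixed pairs.

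Of the regions called in all 4 lists, 31734 lay within 100 kb of a protein-coding start site. Among these 5.58% were called higher on stiff and 7.65% higher on soft, with a median log2 difference of -0.06. The regions near the genes of 13 lists of pathways are set against these shares. In 11 of the 13 lists more regions were called higher on soft than on stiff, which is also the balance over all regions near genes, and the exceptions were the actin and the YAP and TEAD lists. This balance turned with the setting: more soft than stiff calls were found in 6 lists after quantile normalization, 5 with median ratio scaling, 0 with no scaling, 6 with the soft pair as 1 sample, and 6 and 5 without soft replicate 1 or soft replicate 2. Other settings kept it, with 10 lists after GC correction, 10 without stiff replicate 1 and 12 without stiff replicate 2. The counts below are those of the fit with all 4 libraries, each scaled to its median.

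**Figure D5:**
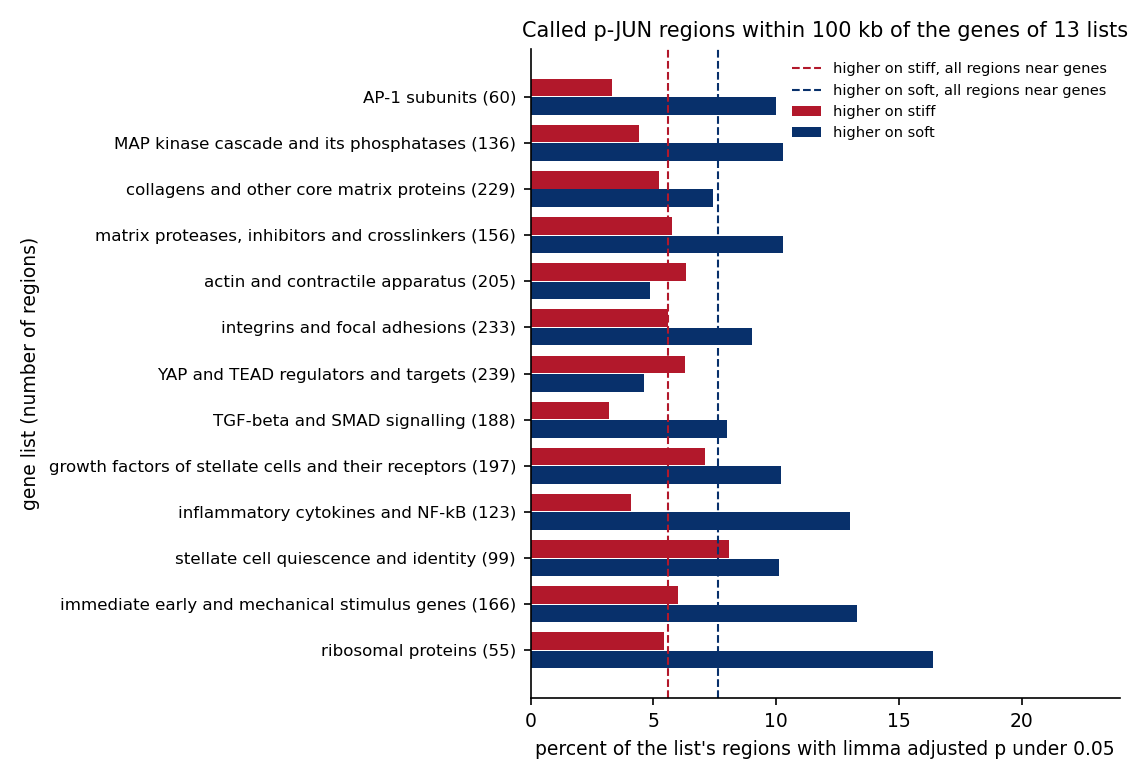
Percent of the regions near each list's genes (y axis, number of regions in brackets) that limma called higher on stiff or higher on soft at an adjusted p under 0.05 (x axis); dashed lines show 5.58% and 7.65%, the shares over all regions near genes. Bars for most lists lie within a few points of the lines.

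Regions near the genes of AP-1 subunits and of the kinases above them were called at shares near those over all regions near genes. Of 60 regions near AP-1 subunit genes 2 were called higher on stiff (3.33%) and 6 higher on soft (10%), with a median of -0.11. At the JUN promoter itself there were 524 and 472 fragments on soft against 449 and 558 on stiff, and the groups overlapped (log2 difference -0.05, SE 0.0713, limma adjusted p = 0.71). A region 46.1 kb from JUN rose from 41 and 37 fragments to 57 and 74 (limma adjusted p = 0.00826). Of 136 regions of the MAP kinase list 6 were called higher on stiff and 14 higher on soft (4.41% and 10.3%). A region 22 bp from a start site inside the gene of MAP2K1, the kinase MEK1, held 38 and 33 fragments on soft against 59 and 63 on stiff. Its summit, at base 66694101, is not at the outer start of the gene, which spans 66679175 to 66783994. Promoters of DUSP4, a phosphatase that switches MAP kinases off, and of MAP3K8 were lower on stiff, with 95 and 85 against 55 and 68 fragments for DUSP4 (log2 difference -0.61, limma adjusted p = 0.00464).

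Among matrix genes both directions were present. Regions near collagens and other core matrix proteins numbered 229, of which 12 (5.24%) were called higher on stiff and 17 (7.42%) higher on soft, close to the shares over all regions near genes. Of 10 regions near COL8A1, a short-chain collagen, 2 were called higher on stiff and none higher on soft. One of them, 75 kb from a start site, held 66 and 76 fragments on soft against 119 and 168 on stiff (log2 difference 0.94, limma adjusted p = 1.22e-07). A region in an intron of COL5A2, a fibrillar collagen gene, held 78 and 76 on soft against 116 and 175 on stiff. It lay 92.9 kb downstream of the nearest start of that gene. On the soft side a region near TGFBI, an adhesion protein induced by TGF-beta, held 61 and 48 fragments on soft against 30 and 37 on stiff. Of 156 regions near matrix proteases, inhibitors and crosslinkers 9 were called higher on stiff and 16 higher on soft (5.77% and 10.3%). An intronic site of ADAMTS12, a metalloprotease, rose from 61 and 62 to 102 and 140 fragments. A site in an intron of SERPINH1, the collagen chaperone HSP47, fell from 344 and 300 to 208 and 258 (log2 difference -0.53, limma adjusted p = 2.83e-06).

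The contractile and adhesion lists lay near the shares over all regions. Of 205 regions of the actin list 13 (6.34%) were called higher on stiff and 10 (4.88%) higher on soft. The widest gaps of this list on the stiff side lay near TPM1, an actin-binding tropomyosin, and in ROCK1, the kinase that drives actomyosin contraction. The TPM1 site held 58 and 47 fragments on soft against 82 and 112 on stiff. The ROCK1 site held 40 and 33 on soft against 56 and 76 on stiff. The region 40.7 kb from a start of ACTA2, which encodes the alpha smooth muscle actin of myofibroblasts, ran the other way, with 83 and 70 fragments on soft against 40 and 50 on stiff (log2 difference -0.83, limma adjusted p = 0.000449). Of 233 regions near integrin and focal adhesion genes 13 were called higher on stiff and 21 higher on soft (5.58% and 9.01%), with NEDD9, a focal adhesion scaffold, at 99 and 86 against 132 and 156 fragments.

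The YAP and TEAD list had a median log2 difference of 0, the least negative of the 13. Of its 239 regions 15 (6.28%) were called higher on stiff and 11 (4.6%) higher on soft. WWC1, the Hippo pathway scaffold KIBRA, accounted for 5 of the 15. The site with the TEAD hexamer shown above held 83 and 83 fragments on soft against 127 and 153 on stiff (log2 difference 0.69, limma adjusted p = 6.52e-05). Sites in STK3 and STK4, the upstream Hippo kinases, were also higher on stiff, with 39 and 30 against 53 and 66 fragments at STK3. An intronic site of YAP1 itself fell from 226 and 186 to 144 and 164 fragments (limma adjusted p = 0.000693).

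Genes of growth factor signalling held calls in both directions. In the TGF-beta list 6 of 188 regions (3.19%) were higher on stiff and 15 (7.98%) higher on soft. The stiff calls included a region 95.9 kb from TGFBR2, the type II receptor, with 110 and 94 fragments on soft against 159 and 217 on stiff (log2 difference 0.81, limma adjusted p = 7.31e-08), and it holds the TEAD hexamer shown above. Of the 15 regions near TGFBR2 this was the 1 called higher on stiff, and 1 other was called higher on soft. The soft calls included regions near GREM1, a BMP antagonist (109 and 99 on soft, 54 and 69 on stiff), and SMAD2, which carries the TGF-beta signal to the nucleus (149 and 134 on soft, 85 and 98 on stiff). SMAD3, its close relative, had 1 region called higher on stiff and 2 higher on soft out of 19. Of 197 regions near growth factors of stellate cells and their receptors 14 were called higher on stiff and 20 higher on soft (7.11% and 10.2%). EGFR, the receptor of epidermal growth factor, had 1 and 2 out of 15. The widest gap of all lists on the stiff side lay 53.1 kb from EDN1, the gene of the vasoconstrictor peptide endothelin, with 35 and 29 fragments on soft against 63 and 85 on stiff (log2 difference 1.14, limma adjusted p = 3.6e-06). The promoter of VEGFA, the vascular growth factor, held 58 and 49 on soft against 35 and 36 on stiff.

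The inflammatory, immediate early and ribosomal lists had the largest shares of soft-higher calls with all 4 libraries. With the soft pair as 1 sample they had 1, 5 and 0 soft-higher calls against 0, 4 and 1 stiff-higher. Of 123 inflammatory regions 5 (4.07%) were called higher on stiff and 16 (13%) higher on soft, with a median of -0.12. The promoters of RELB, an NF-kB subunit (110 and 97 on soft, 51 and 76 on stiff), CXCL2, a neutrophil chemokine (187 and 165 on soft, 121 and 137 on stiff), and BIRC3, an inhibitor of apoptosis that NF-kB induces (124 and 121 on soft, 79 and 95 on stiff), were lower on stiff. Of 166 immediate early and mechanical stimulus regions 10 were called higher on stiff and 22 higher on soft (6.02% and 13.3%), yet the promoter of NPPB, a natriuretic peptide gene that stretch induces, was higher on stiff with 59 and 72 against 105 and 128 fragments (limma adjusted p = 6.77e-05). Of 55 ribosomal protein regions 3 were called higher on stiff and 9 higher on soft (5.45% and 16.4%). A single gene, RPL3, accounted for 5 of the 9, and 5 of the 33 ribosomal genes with a region had a soft-higher call. Of the 55 regions 45.5% were promoters, against 21.9% of all regions near genes. Promoters were lower in stiff libraries as a class and also differed in the mixed pairings, and the part of promoter position in these counts was not tested. After GC correction in each library the soft-higher share was 7.27% for the ribosomal and 7.83% for the immediate early list. It stayed at 13% for the inflammatory list, against 6.43% of all regions near genes. Of 99 regions near quiescence and identity genes 8 were called higher on stiff and 10 higher on soft (8.08% and 10.1%).

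The study shows certain genes as fibrosis markers or AP-1 members. Of 15 such genes 6 had a promoter region in the fit, and none of these passed the test. Peaks within 1 kb of a start site were found in all 4 libraries for ACTA2, ITGB2, MMP9, JUN, FOSL1, FOSL2 and ATF3. The ACTA2 peaks, of 29 and 34 fragments on soft against 22 and 29 on stiff, were not assigned to ACTA2 in the fit and have no test of their own. For COL8A1, ACTG2, VCAN, MMP2 and TIMP4 no library had one. IGFBP3 and JUNB had a peak in stiff replicate 2 alone, with 51 and 34 fragments. FOS had one in 3 libraries, with 48 and 53 fragments on soft against 35 in stiff replicate 2. Among the 6 promoter regions in the fit the largest difference was that of MMP9, a gelatinase, with 65 and 71 fragments on soft against 60 and 55 on stiff (log2 difference -0.3, SE 0.177, limma adjusted p = 0.261). At FOSL2, a FOS-related AP-1 partner of JUN, 362 and 336 fragments on soft stood against 278 and 356 on stiff (limma adjusted p = 0.0797).

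Several genes carried many called regions, named here after their values were seen. TENM2, a teneurin adhesion receptor, had 6 regions called higher on stiff and 1 higher on soft out of 23, and DST, a cytoskeletal linker, had 5 and 0 out of 28. On the soft side IRF2BPL had 8 of 10 regions called, with 1 more called higher on stiff, and SVIL, an actin-binding supervillin, had 7 of 18 with 1 more higher on stiff. LIF and LMNA, genes of a cytokine and of nuclear lamin A, each had 4 of 7 regions called higher on soft and none higher on stiff. Of 11766 genes with a region within 100 kb, 252 had at least 2 called higher on stiff and 313 at least 2 higher on soft. Calls in both directions were found for 271 genes. Over all regions near genes 5.58% were called higher on stiff and 7.65% higher on soft. A gene with many regions has more chances of a call, and neighbours under 2 kb apart went together (r = 0.52). Whether any gene exceeds these shares was not tested.

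Peaks within 1 kb of a start lay at 7 of 14 stellate cell and myofibroblast markers in all 4 libraries, among them ACTA2, COL1A1 and VIM. At 5 others, COL3A1, DES, LUM, HAND2 and CYGB, no library had a peak. In the other lists such peaks lay in all 4 libraries at 2 of 10 hepatocyte markers (SERPINA1 and HNF4A, while ALB had none) and 2 of 8 endothelial markers. They also lay at 3 of 10 macrophage and leukocyte and 3 of 8 cholangiocyte and epithelial markers. No library had a peak at any other marker of these 4 lists. Summed heights of the stellate markers were 1109 and 895 fragments on soft against 748 and 909 on stiff. These sums ran over unlike numbers of markers with a peak, 9 and 8 on soft against 7 and 8 on stiff. A marker without a called peak added nothing, and the part of peak calling in the sums was not tested. Divided by each library's median height they were 13.5 and 12.8 on soft against 10.2 and 10.7 on stiff, without overlap. The scaled sums of the macrophage and leukocyte markers (5.17 and 5.34 on soft, 4.73 and 4.66 on stiff) and of the cholangiocyte and epithelial markers (7.17 and 6.99 against 6.67 and 6.84) did not overlap either. Those of the hepatocyte and endothelial markers did, although the unscaled endothelial sums, 108 and 116 fragments on soft against 124 and 137 on stiff, did not. The part of these sums in the other results was not tested. A p-JUN peak near a start does not show that the gene is expressed.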

How the data were processed

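p-JUN CUT&Tag was analysed in the 4 LX-2 peak lists, 2 soft and 2 stiff, grouped by the treatment label. The other 10 lists of the series, of histone marks, were not used. According to the labels and the study's methods, the authors used Trim Galore for trimming, Bowtie2 for alignment to hg19, Picard for duplicates and MACS2 for peaks of each library. Versions, options and handling of multiply mapped reads are not given in the sources used here. Each deposited peak has a fold (ratio of summit over local background) and −log10 p and −log10 q values from the authors' peak caller. The deposited score was not used beyond a check against −log10 q. The labels and the study's methods differed in the number of cells per assay.

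Whole fragments were recovered from fold and −log10 p for 100% of peaks at a relative error under 1e-04. Peaks on the autosomes, X and Y were used, and 7 or 8 mitochondrial peaks per list left out. The lowest −log10 q was 5 to 5.11. Read totals were not analysed, so depth is known only as fragments at summits. Log2 heights, each library centred on its median, were tested with lmFit and eBayes (trend) of limma 3.58.1 in R 4.3.3, with Benjamini-Hochberg adjustment over all regions. Other steps ran in python 3.11.15 with pysam 0.24.0, numpy 2.4.6, statsmodels 0.14.6, scipy 1.17.1, pandas 2.3.3 and matplotlib 3.10.9. Intervals of shares are 95% Wilson intervals over regions, which are not replicates, and cover counting error only. Genes are from GENCODE release 44 mapped to GRCh37, the build of the files. A region was assigned to the protein-coding gene with the nearest start. The fit and the gap rule were tested on simulated data.

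Members, gene lists and motifs were chosen with earlier results of these data known. The regions named are the 8 of widest gap in each direction with at least 20 fragments in some library, up to 3 per pathway list and direction, the promoters of 15 genes of the study, and those said to be named after their values were seen. Regions chosen by gap were picked from the same heights that limma tested, so their gaps and p-values are not separate evidence. The replicate numbers did not pair the libraries: deviations of same-numbered libraries from their group means correlated with r = 0.051.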

Additional observations from a re-analysis of the deposited data

How the results depend on the processing

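Of the alternatives tried, 71 of 115 values lay within 1.5 times, or within the counting or replicate error, of the value reported. With the deposited fold in place of fragments, limma called 0 regions (3772 at an unadjusted p under 0.05), the shifted regions numbered 21 on stiff and 11 on soft, the promoter and TEAD shares differed by -27.3 and 4.8 points, and the excess spread between labels was 0.0211 in place of 0.0941. With no scaling limma called 222 regions and 61 were soft-higher, with a log2 ratio of counts of 2.22 and a promoter difference of -13.2 points. The log2 ratio of stiff-higher to soft-higher counts, 0.84 as reported, was 1.5 after quantile normalization and 1.87 with median ratio scaling, and it reversed to -0.57 with any gap above 0, where 9089 and 13472 regions separated the labels and the AP-1 and TEAD differences were -8.2 and 6.5 points. At a gap of 2-fold or more, 11 and 8 regions remained, with differences of -31.8 points for AP-1, -12.5 for promoters and -12.5 for TEAD, the last reversed by 1 region. GC correction brought the promoter difference to -4.9 points. Fitted without the height trend limma called 0 regions (9348 at an unadjusted p under 0.05), and with the soft pair as 1 sample, 978, while the shifted regions then numbered 588 and 327, since one value fewer has to separate. The cause was not tested in the other cases.

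Leaving out 1 library gave 1498 to 5846 limma calls, fewest without a soft library, and the cause was not tested. It gave 596 to 954 stiff-higher and 512 to 815 soft-higher regions, since fewer libraries have to separate. The log2 ratio of counts then ran from -0.44 to 0.73, the AP-1 difference from -21.1 to 3 points, the promoter difference from -46.1 to -12.5, the TEAD difference from 10.2 to 13.3 and the log2 ratio of median heights from -0.05 to 0.16. In both reversed cases stiff replicate 2 was left out; a lone library is assumed to vary like the other group. With the replicate number as a block limma called 6074 regions and the log2 ratio of medians was 0.06. The numbers do not pair the libraries (r = 0.051). The median ratio scaling, the soft pair as 1 sample, the lists under other settings and the TEAD shares were chosen after seeing the data. Among the 10% lowest regions, with a median of 28.5 fragments, limma called the smallest share, and whether depth or smaller differences set this was not tested.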
